A study of Mus musculus with 6 samples.

Results

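The genes described here encode 10 secreted proteins grouped as antimicrobial. Defb1, Defb3, Defb4, Defb6 and Defb14 encode beta-defensins, and Reg1 and Reg3g encode lectins. Slpi encodes a protease inhibitor, Pglyrp1 a peptidoglycan-binding protein and Camp a cathelicidin. The genes were taken by symbol from the deposited table, where 10 of 10 had a row among 17564 genes. Back skin of 8-week-old wild-type C57BL/6 mice was sequenced in bulk in 2 groups. In the SspA/HDM group (n = 3), shaved and depilated skin received 3 µg of SspA, the V8 protease of Staphylococcus aureus, together with 10 µg of house dust mite extract (HDM). That application was given again 3 days later, and skin was collected 7 days after the first one. The untreated group (n = 3) was shaved and depilated as well and received neither agent, and the labels name no collection day for it. Whether the replicates are separate animals is not stated, so p-values here reflect the scatter of these libraries, some of which could be technical.

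Antimicrobial peptides form the chemical barrier of the skin. Beta-defensins are small cationic peptides held together by disulfide bonds, and some are made at a steady level by keratinocytes while others are known to be induced by microbial products and by cytokines such as IL-17, IL-22 and IL-1. Of the Reg lectins here, Reg3g binds bacterial cell walls and is best known from the gut and from wounded epidermis. Slpi inhibits serine proteases of neutrophils, and Pglyrp1 and Camp are stored in neutrophil granules.

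Levels are given in scaled reads, the deposited values, which sum to between 6339993 and 6340285 in each library. The recovered reads behind them numbered 5606959, 5821622 and 7545567 in SspA/HDM replicates 1 to 3 and 5770072, 4928245 and 5580401 in untreated replicates 1 to 3, so SspA/HDM replicate 3 was the deepest library. The tissue label was checked on the basal keratin gene Krt14, chosen after its values were seen. Krt14 had 1154 to 1692 scaled reads in SspA/HDM skin and 1475 to 1625 in untreated skin. This shows only that keratinocyte transcript was present in each library, and other keratinocyte markers are described below. In bulk skin, fewer cells of a type and less RNA per cell cannot be told apart.

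SspA/HDM skin carried more transcript of 6 of the 10 genes: Defb3, Defb4, Defb14, Reg1, Slpi and Pglyrp1. A gene was called at an adjusted p under 0.05 in limma on log2(scaled reads + 1), adjusted by Benjamini-Hochberg over 15534 tested genes, of which 9.26% were called higher and 7.23% lower. No member was called lower. Defb1 and Defb6 were tested and not called, and Reg3g and Camp had too few reads to be tested. Reg1 and Defb4 reached the minimum read level only in SspA/HDM libraries, and Defb3 reached it in 1 of 3 untreated libraries, so these genes could enter the test only by being high after treatment. All SspA/HDM libraries lay above all untreated libraries for 8 of the 10 genes, Defb6 and Camp being the exceptions, and the same held for 21.0% of all genes in the table.

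**Figure D1:**
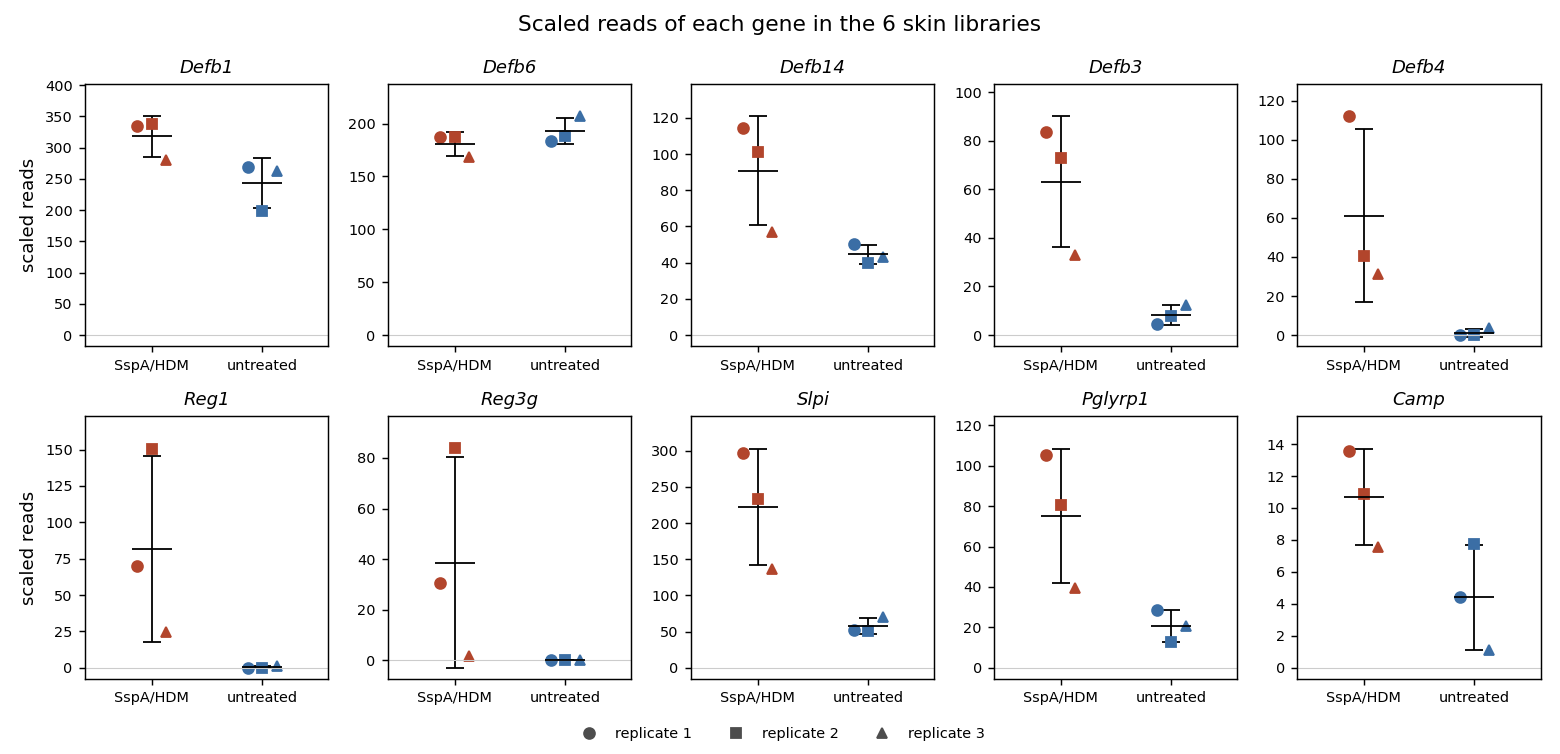
Scaled reads (vertical axis, a separate linear scale per gene) of the 10 genes in SspA/HDM libraries (red, left) and untreated libraries (blue, right), with replicates 1, 2 and 3 as circles, squares and triangles and bars for the mean ± SD (n = 3). SspA/HDM replicate 3 is the lowest SspA/HDM point in every panel, and the groups overlap only for Defb6 and Camp.

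The largest change among the beta-defensins was that of Defb4 (mm10 chr8:19198704-19201547, 2 exons), the mouse gene usually set beside human beta-defensin 2. It had 112, 40.3 and 31.1 scaled reads in SspA/HDM replicates 1 to 3, against 0, 0 and 3.41 in untreated replicates 1 to 3. In untreated skin the gene was thus close to absent from the reads, with 3 reads over the group, while 173 were found over the SspA/HDM group. The log2 fold change was 5.02 ± 0.69 (SE, limma, adjusted p = 0.0040). Because 3 reads carry the lower group, the ratio of counts is given as well, 49.5 with a 95% counting interval of 16.6 to 242. That interval covers counting error only and leaves out the spread between libraries. The fitted value also depends on the pseudocount, at 3.28 with a pseudocount of 5, and with single libraries left out it ran from 4.47 without SspA/HDM replicate 1 to 5.73 without untreated replicate 3, where both untreated libraries left are at 0 (limma, adjusted p from 0.0029 to 0.0192 over the 6 fits). Of the 405 stretches of 50 bases in its transcript, 23 also occur in Defb8, so a part of its reads may be shared with that gene.

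Defb3 (chr8:19293361-19295339, 2 exons), an inducible defensin of mouse epithelia, had 83.7, 73.0 and 32.8 scaled reads in SspA/HDM replicates, against 4.40, 7.72 and 12.5 in untreated ones. The lowest SspA/HDM value was 2.62 times the highest untreated one. Its log2 fold change was 2.79 ± 0.45 (SE, limma, adjusted p = 0.0063), and it was called under each of 21 alternative settings.

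Defb14 (chr8:19194328-19195309, 2 exons), the counterpart of human beta-defensin 3 and a ligand of the chemokine receptor Ccr6, changed less. Its values were 114, 101 and 57.1 scaled reads in SspA/HDM replicates and 50.6, 39.9 and 43.2 in untreated replicates. SspA/HDM replicate 3 lay only 1.13 times above the highest untreated library. The log2 fold change was 0.96 ± 0.27 (SE, limma, adjusted p = 0.0443), just inside the threshold. The call was kept in 11 of 21 alternatives; adjusted p was 0.132 without SspA/HDM replicate 1, 0.148 without SspA/HDM replicate 2, and 0.0849, 0.121 and 0.0933 without untreated replicates 1, 2 and 3 (limma).

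Defb6 (chr8:19225478-19228209, 2 exons), a defensin known from mouse skeletal muscle and epithelia, did not differ between the groups beyond the spread of the libraries. It had 188, 187 and 168 scaled reads in SspA/HDM replicates, against 184, 188 and 207 in untreated replicates, and the groups overlapped. The mean was 181 ± 11.2 in SspA/HDM skin and 193 ± 12.4 in untreated skin (SD, n = 3 each). The log2 fold change was -0.09 ± 0.12 (SE, limma, adjusted p = 0.657), and over the 21 alternatives it stayed between -0.13 and -0.04 without a call. Defb6 had 0.458 to 0.627 reads per base of transcript, the densest of the 10 genes, and no gene in the table exceeded 0.923, a ceiling on which the labels and headers are silent. With reads estimated from filled positions, its log2 fold change was -0.04 (limma, adjusted p = 0.845).

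Defb1 (chr8:21776555-21795185, 2 exons), the counterpart of human beta-defensin 1 and known as a constitutive defensin, had 335, 338 and 281 scaled reads in SspA/HDM replicates, against 269, 198 and 262 in untreated replicates. All SspA/HDM values lay above all untreated ones, by 1.04 times at the closest. Its log2 fold change of 0.39 ± 0.14 (SE) did not pass the test (limma, adjusted p = 0.0953), and none of the 21 alternatives called it, with adjusted p from 0.0599 to 0.256.

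Defb14, Defb4, Defb6 and Defb3 lie in this order on the plus strand of chromosome 8 within 101 kb, and Defb1 lies outside that stretch. No other beta-defensin gene had a row in the table. Defb6, which was not called, sits between Defb4 and Defb3, which were. Across the GENCODE transcripts, the highest identity value of any pair of the 5 beta-defensins was 61.9%, for Defb3 and Defb6. The lowest was 21.7%, for Defb1 and Defb14. A difference in transcript length limits the value a pair can reach, so it does not rank the pairs by likeness of sequence. The GENCODE transcripts searched for Defb3, Defb6, Defb14 and Defb1 (275, 323, 204 and 872 bases) share no stretch of 50 bases with another gene; for Defb14, Defb3 and Defb1 they are shorter than the transcripts in the deposited table (326, 318 and 912 bases).

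**Figure D2:**
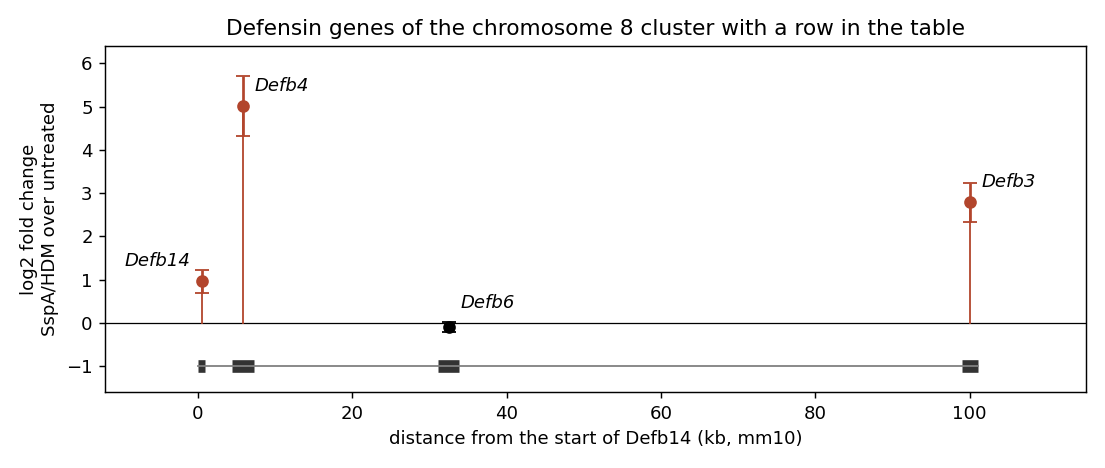
Log2 fold change of SspA/HDM over untreated skin (vertical axis, points with SE bars) against the distance from the start of Defb14 in kb (horizontal axis). Dark boxes at the bottom mark the genes to scale; red genes were called at an adjusted p under 0.05, and Defb6, in black at -0.09, lies between Defb4 at 5.02 and Defb3 at 2.79.

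Upstream, Defb3 and Defb6 resemble each other, with 74.0% identity over the 250 bases before their start sites. These promoters are shown as a pair with different behaviour in the data. The sequences are RefSeq annotation of GRCm38.p6, the assembly that mm10 names, and 7 of the 10 genes had an entry. Capitals mark the motifs TTGCNNAA (C/EBP) and TATAA (TATA box), read on both strands. The regions are chr8:19293111-19293360 for Defb3 and chr8:19225228-19225477 for Defb6, both on the plus strand.
Defb3: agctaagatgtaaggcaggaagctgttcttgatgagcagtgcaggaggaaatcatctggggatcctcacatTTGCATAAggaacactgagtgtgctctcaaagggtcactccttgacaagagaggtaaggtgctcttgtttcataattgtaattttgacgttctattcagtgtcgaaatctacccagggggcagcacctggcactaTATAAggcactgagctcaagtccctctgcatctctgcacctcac
Defb6: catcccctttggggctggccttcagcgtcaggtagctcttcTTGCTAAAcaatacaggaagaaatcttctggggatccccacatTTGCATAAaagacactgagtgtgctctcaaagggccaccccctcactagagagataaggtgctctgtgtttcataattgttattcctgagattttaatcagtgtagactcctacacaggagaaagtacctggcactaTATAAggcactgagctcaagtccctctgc
Both hold the C/EBP match TTGCATAA and a TATA box, which start 179 and 44 bases before the start site in Defb3 and 166 and 29 bases before it in Defb6. Defb6 has a further C/EBP match, TTGCTAAA, that starts 209 bases before its start site. C/EBP matches occurred in 9.56% and TATA boxes in 22.8% of 32851 promoters of that length. Neither promoter held an NF-kB match (GGG, then 2 bases of any kind, then TTTCC), TTCNNNGAA (STAT) or TGANTCA (AP-1), and a match describes letters only.

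The make-up of the beta-defensin transcripts is described here on a per-length scale; the shares sum to 100%, so they restate the changes given above. Summed over the 5 genes, SspA/HDM replicates 1 to 3 had 1816, 1586 and 1181 scaled reads per kb, against 1039, 953 and 1115 in untreated replicates. Defb6 made up 32.4%, 37.0% and 44.6% of that sum in SspA/HDM skin and 55.3%, 61.8% and 58.1% in untreated skin. It remained the gene with the largest share in each library, and its share was smaller in all SspA/HDM libraries than in any untreated one.

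Defb3 took 12.6% ± 3.32 of the sum in SspA/HDM skin and 2.47% ± 1.10 in untreated skin, and Defb4 took 8.32% ± 4.55 and 0.224% ± 0.389 (SD, n = 3 each). The groups did not overlap for the shares of Defb3, Defb4 and Defb6 or for the sum, each with p = 0.1 in an exact two-sided permutation test, the smallest that 3 samples against 3 allow (0.15 after adjustment over 6 tests), so this design could not show a difference in shares. Defb14 held 17.9% ± 2.66 in SspA/HDM and 13.2% ± 1.56 in untreated skin (exact permutation p = 0.2), and Defb1 held 23.2% ± 2.92 and 25.7% ± 2.80 (exact permutation p = 0.5). With reads estimated from filled positions, an alternative chosen after seeing the data for this share, Defb6 held 43.5% in SspA/HDM skin and 64.2% in untreated skin.

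**Figure D3:**
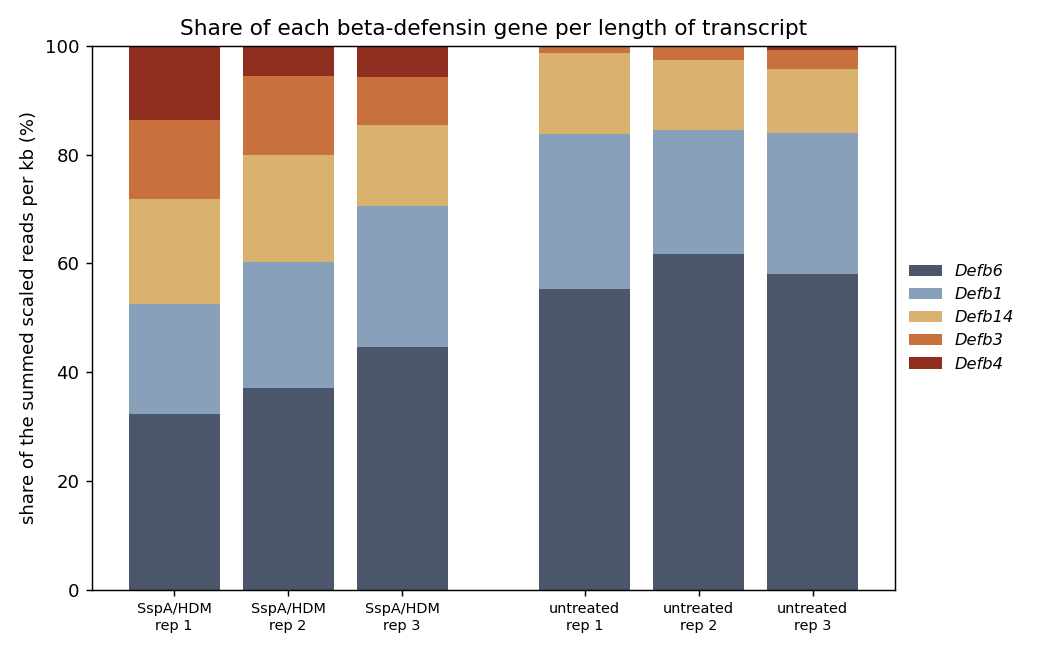
Share of each of 5 beta-defensin genes in their summed scaled reads per kb of transcript (vertical axis, percent), 1 stacked bar per library, SspA/HDM libraries on the left. Defb6 fills 32.4% to 44.6% of the SspA/HDM bars and 55.3% to 61.8% of the untreated bars, where Defb3 and Defb4 are thin or absent.

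With all 6 libraries, the highest log2 fold change among the 8 tested genes was that of Reg1 (mm10 chr6:78425983-78428668, plus strand, 6 exons), a secreted lectin first known from regenerating pancreas. It had 70.1, 150 and 24.4 scaled reads in SspA/HDM replicates, against 0, 0 and 1.14 in untreated replicates, the last being a single read. In the SspA/HDM group 229 reads were recovered, and the libraries of that group differed among themselves by several fold. The log2 fold change of 5.65 ± 0.65 (SE, limma, adjusted p = 0.0019) ranked 7 among the 15534 tested genes. Its size, and with it the rank, depends on how low counts are handled. The value was 3.71 with a pseudocount of 5, 6.43 with a pseudocount of 0.5 and 7.57 with DESeq2. With 1 read in the lower group the ratio of counts was 196, with a 95% counting interval of 34.9 to 7794. Without SspA/HDM replicate 2 the log2 fold change was 5.04, below the 5.20 of Defb4, and it was 6.33 without SspA/HDM replicate 3 (limma, adjusted p = 0.0075 and 4.63e-04).

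Reg3g (chr6:78466269-78468874, minus strand, 6 exons), which binds peptidoglycan of Gram-positive bacteria, had 30.5, 83.9 and 1.68 scaled reads in SspA/HDM replicates and 0 in all 3 untreated replicates. The 1.68 scaled reads of replicate 3 are 2 reads, at the level that a count of 0 allows, so the gene was well detected in 2 of 3 SspA/HDM libraries. Over the group it had 106 reads, and its mean was 33.0 times a floor of 3 reads over the untreated group. It did not enter the test. Without the filter on low values limma gave a log2 fold change of 4.27 (adjusted p = 0.0279), where 8.70% of 17564 genes were called higher, and the authors' deposited table, where 7.26% of genes are called higher, gives 7.46 (adjusted p = 0.0144). Both fitted values depend on how a group of zeros is handled.

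From the start of Reg1 to the end of Reg3g the stretch on chromosome 6 measures 42.9 kb. Both genes were highest in SspA/HDM replicate 2 and lowest in replicate 3. Their promoters are shown because both genes were high in the same libraries, with TATAA (TATA box) and TGANTCA (AP-1) in capitals on either strand. The regions are chr6:78425733-78425982 on the plus strand for Reg1 and chr6:78468875-78469124 on the minus strand for Reg3g. Their identity was 52.8%, with no value for unrelated promoters to set beside it, so it does not show shared sequence.
Reg1: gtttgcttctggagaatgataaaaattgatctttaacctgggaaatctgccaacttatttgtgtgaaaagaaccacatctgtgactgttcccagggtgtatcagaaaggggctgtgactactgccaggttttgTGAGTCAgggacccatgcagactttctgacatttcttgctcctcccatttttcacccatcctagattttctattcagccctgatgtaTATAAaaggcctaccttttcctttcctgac
Reg3g: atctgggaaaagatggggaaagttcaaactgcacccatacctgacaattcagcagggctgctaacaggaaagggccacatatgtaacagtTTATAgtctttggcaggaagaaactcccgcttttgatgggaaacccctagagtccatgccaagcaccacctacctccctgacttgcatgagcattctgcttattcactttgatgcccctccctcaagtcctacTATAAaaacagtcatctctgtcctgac
A TATA box starts 30 bases before the start site in Reg1 and 27 bases before it in Reg3g. Reg3g holds another, on the opposite strand, whose letters start 160 bases before the start site. Reg1 holds an AP-1 match, TGAGTCA, that starts 117 bases before it, and 6.75% of all promoters had such a match. Their GENCODE transcripts were 58.1% identical and shared no 50 bases with another gene.

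Slpi (chr2:164354070-164356507, minus strand, 4 exons) encodes an inhibitor of neutrophil elastase and cathepsin G that also kills bacteria. It had 296, 233 and 137 scaled reads in SspA/HDM replicates, against 51.6, 51.5 and 70.4 in untreated replicates. Every SspA/HDM library was above every untreated one, by 1.94 times at the closest. Its log2 fold change was 1.87 ± 0.28 (SE, limma, adjusted p = 0.0050), and each of the 21 alternatives called it. Its promoter held 1 C/EBP match, TTGAGCAA, on the opposite strand, starting 241 bases before the start site.

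Pglyrp1 (chr7:18884690-18890438, plus strand, 3 exons) binds bacterial peptidoglycan and is a known ligand of the myeloid receptor Trem1. It had 105, 80.6 and 39.5 scaled reads in SspA/HDM replicates, against 28.6, 12.9 and 20.5 in untreated replicates. The groups did not overlap, and SspA/HDM replicate 3 was 1.38 times the highest untreated library. Its log2 fold change was 1.77 ± 0.41 (SE, limma, adjusted p = 0.0211). The call was lost without SspA/HDM replicate 1 (adjusted p = 0.0719), SspA/HDM replicate 2 (0.0744) or untreated replicate 2 (0.0633), and with limma-voom (0.0575).

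The promoter of Pglyrp1 (chr7:18884440-18884689, plus strand) is shown because it was the only one of the 7 with an NF-kB match, a factor family known to act downstream of IL-1 and TNF. Capitals mark the match, which lies on the opposite strand and starts 93 bases before the start site.
Pglyrp1: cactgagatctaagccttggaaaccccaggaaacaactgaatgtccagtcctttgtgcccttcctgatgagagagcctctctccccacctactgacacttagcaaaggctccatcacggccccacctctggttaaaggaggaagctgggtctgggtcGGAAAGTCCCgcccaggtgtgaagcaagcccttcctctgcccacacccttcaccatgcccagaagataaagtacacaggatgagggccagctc
Such a match was found in 1.41% of all promoters. Of the 7 promoters, 4 held a TATA box, 3 a C/EBP match and 1 an AP-1 match, and that of Camp held none of the 5 motifs. STAT matches were in 0 of 7, against 7.02% of all promoters.

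Camp (chr9:109847377-109849456, minus strand, 4 exons) encodes the single mouse cathelicidin, an antimicrobial peptide precursor that neutrophils and keratinocytes make. It had 13.6, 10.9 and 7.56 scaled reads in SspA/HDM replicates and 4.40, 7.72 and 1.14 in untreated replicates, so the groups overlapped by a narrow margin. With 31 reads in the SspA/HDM group and 11 in the untreated group, the ratio of counts was 2.42 (95% counting interval 1.18 to 5.33), an interval that covers counting error only. The gene stayed below the filter. Without it limma gave a log2 fold change of 1.29 (adjusted p = 0.150), so no difference was detected in these libraries.

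**Figure D4:**
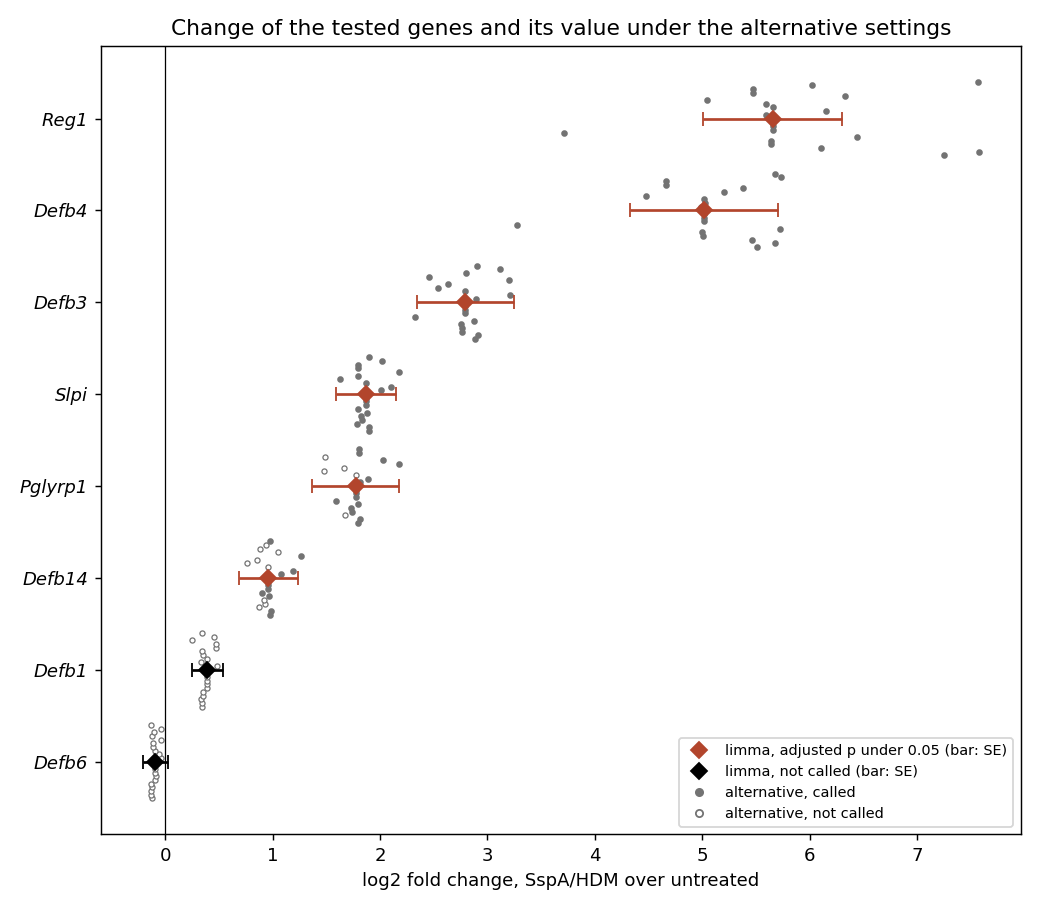
Log2 fold change of SspA/HDM over untreated skin (horizontal axis) for the 8 tested genes: diamonds show limma with SE bars (red where called), and small dots show the alternative settings, filled where called and open where not. Defb3, Defb4, Reg1 and Slpi are filled throughout, Defb14 and Pglyrp1 are mixed, and Defb1 and Defb6 are open throughout.

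All 10 genes had their lowest SspA/HDM value in replicate 3, while 35.3% of the tested genes and 46.9% of those called higher were lowest there. Of the 10 genes, 7 were highest in SspA/HDM replicate 1, and Defb1, Reg1 and Reg3g were highest in replicate 2. Relative to the mean of replicates 1 and 2, replicate 3 had 0.896 of the level for Defb6 and 0.835 for Defb1, but 0.418 for Defb3, 0.221 for Reg1 and 0.0294 for Reg3g. SspA/HDM replicate 3 was also the deepest library, where Defb6 had 0.627 reads per base, against 0.520 and 0.539 in replicates 1 and 2. The part of depth and of the ceiling on reads per base in these ratios was not tested. The coefficient of variation in SspA/HDM skin was 6.21% for Defb6 and 108% for Reg3g.

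Per kb of transcript, Defb6 had the highest level of the 10 genes in both groups, 567 ± 35.2 scaled reads per kb in SspA/HDM skin and 604 ± 38.8 in untreated skin (SD, n = 3 each). In SspA/HDM skin Defb1 (348), Defb14 (279), Slpi (255), Defb3 (199), Defb4 (135), Pglyrp1 (111), Reg1 (107), Reg3g (50.6) and Camp (18.0) followed in mean scaled reads per kb, and from Defb1 down the ranges of all neighbours overlapped. In untreated skin the order was Defb1 (267), Defb14 (137), Slpi (66.5), Pglyrp1 (30.5), Defb3 (25.8), Camp (7.45), Defb4 (2.50), Reg1 (0.498) and Reg3g (0). There the ranges of Pglyrp1 and Defb3 overlapped, as did those of neighbours from Camp down, and the other neighbours were apart.

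Other secreted antimicrobial genes moved in both directions. Of 30 listed, 17 had a row and 16 were tested, of which 5 rose and 2 fell (9.26% and 7.23% of all tested genes did), with a median log2 fold change of 0.14 beside 0.03 over all tested genes. Wfdc12, a relative of Slpi in the whey acidic protein family, had 118, 151 and 122 scaled reads in SspA/HDM skin and 26.4, 16.7 and 14.8 in untreated skin (log2 fold change 2.73 ± 0.26 SE, limma, adjusted p = 9.91e-04). Its relative Wfdc3 went the other way, with 19.2, 14.2 and 22.7 scaled reads in SspA/HDM skin and 70.3, 127 and 73.9 in untreated skin (-2.19 ± 0.30, adjusted p = 0.0040). The groups did not overlap for either gene. The iron-binding proteins Lcn2 (log2 fold change 1.44, adjusted p = 0.0095) and Ltf (2.59, adjusted p = 0.0058), the granule protein Ngp (ratio of counts 27.5, 95% counting interval 7.30 to 232, adjusted p = 0.0048) and the epidermal peptidoglycan-binding protein Pglyrp3 (0.80, adjusted p = 0.0244) were higher as well (limma). Pglyrp3 was not called without SspA/HDM replicate 1 or untreated replicates 2 or 3 (adjusted p up to 0.0770). Lyz1, one of a pair of near-identical lysozyme genes whose reads may be split, was lower (-1.21, limma, adjusted p = 0.0019).

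Among 23 cytokine, receptor and signal genes of pathways known to induce these peptides, 20 were tested, with a median log2 fold change of 0.08. By limma 6 were called higher and 1 lower, the decoy receptor gene Il22ra2, where 9.26% and 7.23% of all tested genes were. The count called higher was 3 with limma-voom, 2 without a trend in the spread, and 3 without SspA/HDM replicate 1 or without untreated replicate 1; it was 4 without untreated replicate 2 or 3. Il17f, a cytokine that acts on keratinocytes, had 54.3, 22.9 and 21.0 scaled reads in SspA/HDM skin and 0 in all untreated replicates. It was called higher (limma, adjusted p = 0.0011), and its mean was 27.9 times the floor of 3 reads over the untreated group. Il17f, like Ltf, Ngp, Trem1 and Fpr2, reached the minimum read level in 0 untreated libraries, so these genes could enter the test only by being high after treatment. Il17a had 36 reads in SspA/HDM skin and 2 in untreated skin (ratio of counts 15.4, 95% counting interval 3.98 to 132). Il22 had 20 and 0 reads, with an SspA/HDM mean 5.46 times the floor. Both were below the filter and untested.

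Il1b averaged 423 ± 304 scaled reads in SspA/HDM skin and 56.5 ± 2.62 in untreated skin (SD, n = 3 each; log2 fold change 2.61, limma, adjusted p = 0.0079, but 0.0661 with limma-voom). Tnf (86.1 ± 46.9 scaled reads in SspA/HDM and 27.5 ± 4.80 in untreated skin, SD, n = 3 each) was also higher (limma, adjusted p = 0.0223). Tnf was not called without untreated replicate 1, with no trend in the spread, at adjusted p under 0.01, or by limma-voom. The receptor subunit Il10rb was higher as well (log2 fold change 0.43, limma, adjusted p = 0.0234), a call that 15 of 21 alternatives kept. That call was lost without SspA/HDM replicates 1 or 2 or untreated replicate 2, with no trend in the spread, at adjusted p under 0.01, and in the authors' deposited comparison. Il22ra2, the soluble decoy receptor of IL-22, was lower, at 59.6 ± 8.27 scaled reads in SspA/HDM skin and 176 ± 23.7 in untreated skin (SD, n = 3 each; log2 fold change -1.54, limma, adjusted p = 0.0019).

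Of 8 receptor genes through which members are known to act on host cells, 6 were tested, 2 were called higher and 0 lower, where 9.26% and 7.23% of all tested genes were, with a median log2 fold change of 1.57. The count called higher was 0 with limma-voom and 4 with the replicate block or without untreated replicate 3. Mrgprb2 was called lower with DESeq2, TMM or RLE scaling, the replicate block and reads estimated from filled positions. It was also called lower with the 4 libraries of like depth, without SspA/HDM replicate 3 and in the authors' deposited comparison. Trem1, the receptor of Pglyrp1, had 455, 106 and 28.6 scaled reads in SspA/HDM skin and 3.30, 0 and 2.27 in untreated skin (log2 fold change 5.55 ± 0.92 SE, limma, adjusted p = 0.0069, but 0.0953 with limma-voom). Fpr2, a receptor of cathelicidin, was higher by 3.47 (limma, adjusted p = 0.0122, but 0.0895 with limma-voom). Ccr6 had 35.1, 24.0 and 40.3 scaled reads in SspA/HDM skin and 8.79, 0 and 14.8 in untreated skin, which did not overlap but missed the threshold (limma, adjusted p = 0.0737) and was not called in 16 of 21 alternatives. Mrgprb2, a mast cell receptor for cationic peptides, averaged 84.9 ± 32.8 in SspA/HDM skin and 160 ± 36.4 in untreated skin (SD, n = 3 each; limma, adjusted p = 0.0521) and was not called in 13 of 21 alternatives.

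Of 8 proteases that process cathelicidin or are inhibited by Slpi and the kallikrein inhibitor gene Spink5, 6 genes were tested, with a median log2 fold change of 0.05. By limma 1 was called higher and 1 lower, where 9.26% and 7.23% of all tested genes were. The kallikrein Klk14 was higher, with 259, 199 and 197 scaled reads in SspA/HDM skin and 35.2, 23.2 and 51.1 in untreated skin (log2 fold change 2.61 ± 0.28 SE, limma, adjusted p = 0.0013). Klk5, known to cut human cathelicidin, was called lower (-0.29 ± 0.08, limma, adjusted p = 0.0479), a call that 10 of 21 alternatives kept and that was lost without any of 5 libraries, all but SspA/HDM replicate 3. Elane, the neutrophil elastase gene, had 15 reads in SspA/HDM skin and 14 in untreated skin.

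Markers of other cells moved with the treatment as well. The 10 neutrophil markers summed to 4313, 3630 and 1516 scaled reads in SspA/HDM replicates 1 to 3, against 570, 482 and 707 in untreated replicates. A few genes carry these sums: in untreated replicate 1, Cxcr2 had 220 and Mmp9 133 scaled reads, while Ly6g had 0. In SspA/HDM replicate 3 they had 297, 197 and 2.52, so the sum is no measure of neutrophil number. By limma 8 of 8 tested were called higher, where 9.26% of all tested genes were, with a median log2 fold change of 2.66. Limma-voom and a threshold of 0.01 each called 5. Retnlg and Mmp8 reached the minimum read level in 0 untreated libraries, so they could enter the test only by being high after treatment. Ly6g was at 0 in all untreated libraries and had 39 reads in SspA/HDM skin. The examples with the smallest p were Retnlg (log2 fold change 4.50, limma, adjusted p = 0.0034), Clec4d, Mmp8 and Csf3r (3.29, adjusted p = 0.0053), of which Retnlg (0.0505) and Mmp8 (0.104) were not called by limma-voom. Genes of neutrophil precursor granules were low throughout, with sums of 58.0 to 87.1 scaled reads in SspA/HDM skin and 26.1 to 33.5 in untreated skin. Of 6 such genes 3 were tested and 2 called higher, Ltf and Ngp, and Mpo had 6 reads in SspA/HDM skin and 3 in untreated skin. Slpi, Pglyrp1 and Camp are also made by neutrophils, and the part of the neutrophil signal in their values was not tested.

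The neutrophil sum was lowest in SspA/HDM replicate 3, as were the 10 genes, while the inner root sheath markers of the growing hair follicle were highest there. Their sums were 1912, 732 and 4231 scaled reads in SspA/HDM replicates, against 188, 129 and 174 in untreated replicates. Of 7 listed, 6 of 6 tested were called higher by limma but 2 of 6 by limma-voom. Krt25 and Krt73 reached the minimum read level in 0 untreated libraries and Krt27 in 1, so these genes could enter the test only by being high after treatment. Over all tested genes, limma called 9.26% higher and 7.23% lower, beside which the counts here and below can be set. The 10 keratinocyte markers summed to 15225, 14138 and 12513 scaled reads in SspA/HDM replicates, against 17226, 17858 and 16802 in untreated replicates, with 0 of 9 tested called higher and 3 lower (Krt15, Krt77 and Col17a1). The ceiling of 0.923 reads per base may lower scaled values of densely read genes most in the deepest library, SspA/HDM replicate 3. With reads estimated from filled positions, 0 were called higher and 3 lower. The part of the ceiling in these sums and in those of the wound keratins was not tested. Of 6 macrophage markers 1, Cd68, was called higher, and their sums were 5038 to 6932 in SspA/HDM skin and 3502 to 4611 in untreated skin. Of 4 wound keratin genes 1, Krt6b, was called higher, a call that 10 of 21 alternatives kept, and 3 were called higher without SspA/HDM replicate 3 (Krt6a and Krt16 being added). Their sums were 3278 to 4965 in SspA/HDM skin and 3611 to 3779 in untreated skin. The part of these shifts in the results was not tested.

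**Figure D5:**
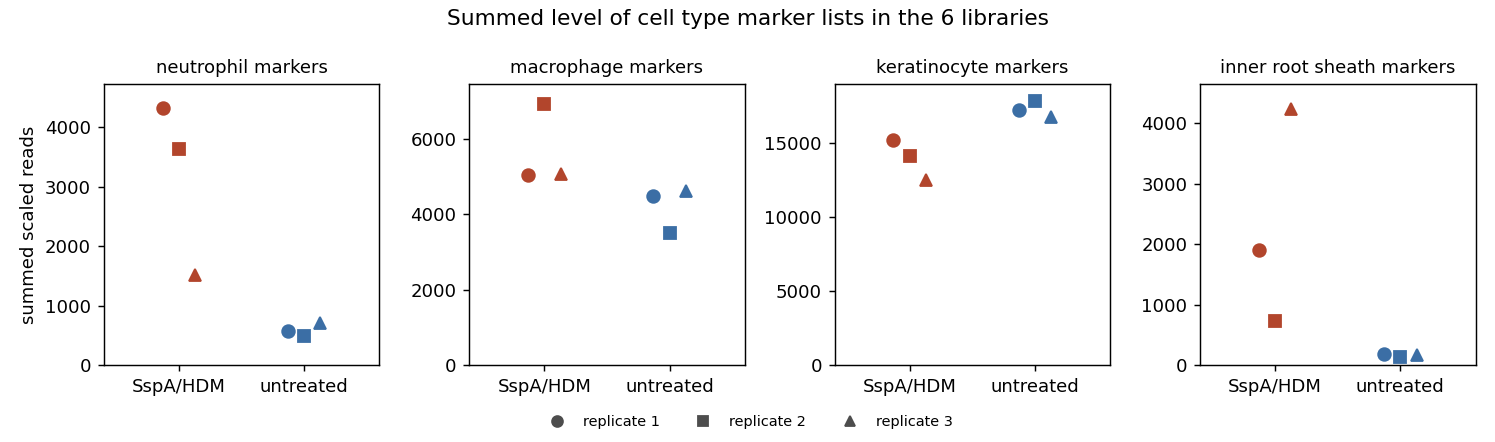
Summed scaled reads (vertical axis, linear from 0, a separate scale per panel) of 4 cell type marker lists in SspA/HDM libraries (red, left) and untreated libraries (blue, right), with replicates 1, 2 and 3 as circles, squares and triangles. In SspA/HDM replicate 3 the neutrophil sum is the lowest of its group at 1516 and the inner root sheath sum the highest at 4231.

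Genes with the library pattern most like each called member were found by the smallest root mean square difference in log2(scaled reads + 1), after subtracting each gene's untreated mean, over the 6 libraries. For Defb3 these were Sprr2i (0.28 log2 units), Csta3 (0.39) and Trpm2 (0.41), and for Slpi Ptprz1 (0.13), Adm2 (0.16) and Bfsp1 (0.16). Spink12 and Uox stood among the 3 nearest genes of both Defb4 (0.42 and 0.68) and Reg1 (0.71 and 0.60), with Cstdc4 (0.58) for Defb4 and Tmprss11b (0.55) nearest to Reg1. For Defb14 they were Lilrb4a (0.14), Parpbp (0.14) and Pla2g7 (0.15), and for Pglyrp1 Il6 (0.11), Nfe2 (0.13) and Slc13a3 (0.17). Il6 had 46.4, 31.6 and 14.3 scaled reads in SspA/HDM skin and 11.0, 5.15 and 6.82 in untreated skin; like Pglyrp1, it was highest in SspA/HDM replicate 1 and lowest in untreated replicate 2. These neighbours were chosen for their likeness, which describes 6 libraries and is no test.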

How the data were processed

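Stranded mRNA libraries were prepared from 6 skin samples, per the labels' protocols. The submitters' processing notes name STAR, DESeq2 and bcl2fastq 2.20.0.422 and build mm10, while how reads were counted and filtered is not given in the sources used here. A single table was deposited, in which the authors gave a scaled signal per gene, their own log2 fold changes, and p-values with adjusted p-values. In each library 100% of values were whole multiples of 1 read within 0.1 read, so reads were recovered. Floors (3 reads over a group, 1.02 scaled reads in SspA/HDM and 1.17 in untreated skin) and 95% intervals cover counting error only.

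Recovered reads were filtered with filterByExpr (edgeR 4.0.16; minimum count 10 and minimum total 15), and the genes left were tested in R 4.3.3 with limma 3.58.1 on log2(value + 1), a scale that understates changes of low genes, with a trend in the spread and group as the only term. The script was tested on simulated data. Alternatives were edgeR, DESeq2 1.42.0 and limma-voom on reads, other scalings, pseudocounts (0.5 and 5), filters and thresholds, a replicate block, reads estimated from filled positions, each library left out, the 4 libraries of like depth, and the authors' comparison. The genes and lists were chosen with earlier results of these data known. All members are named; of each list, called genes up to 5 in a direction, otherwise the 4 with the smallest p, plus up to 2 uncalled ligands, receptors or inducing cytokines, and up to 3 genes most alike per called member, leaving out predicted genes. Marker genes named beyond that (Elane, Ly6g, Mpo, Krt14) serve as checks and were chosen after their values were seen. Python 3.11.15 with matplotlib 3.10.9 drew the figures.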

Additional observations from a re-analysis of the deposited data

How the results depend on the processing

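Over 21 alternatives, Defb3, Defb4, Reg1 and Slpi were called higher and Defb1 and Defb6 were not called in any, and none of the 8 tested members changed direction or was called lower. Reg3g had a value in 2 alternatives and Camp in 3. The count of members called higher was 6 with limma, edgeR, DESeq2 and the 4 libraries of like depth, 7 without the filter and in the authors' deposited table (Reg3g being added), 5 with TMM or RLE scaling, 4 with limma-voom, without a trend or at adjusted p under 0.01, and 4 to 6 with a library left out. Defb14 and Pglyrp1 account for the losses; the cause was not tested. Over all genes, 1439 were called higher and 1123 lower, which became 922 and 640 without a trend in the spread, 362 and 288 at adjusted p under 0.01, and 597 to 1389 and 518 to 1333 with a library left out (597 and 518 without SspA/HDM replicate 2, 856 and 623 without SspA/HDM replicate 1, 675 and 543 without untreated replicate 1, 751 and 644 without untreated replicate 2). The median log2 fold change of all genes moved by less than 0.05 under every scaling.

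Samples of the 2 groups share replicate numbers, and the labels do not say whether these mark a pairing. Correlations of deviations between same-numbered samples were -0.085, -0.0545 and 0.0538, which with 3 samples per group cannot exclude one. With the replicate block 1348 genes were called higher and 1096 lower, and 6 members higher. Defb4, Reg1, Reg3g and Camp rest on few reads in untreated skin, which limits the size of their fold changes.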
